A study of Homo sapiens with 9 samples.

Results

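Histone genes were described in MDA-MB-231, a human triple-negative breast cancer line labelled as epithelial and from a mammary gland adenocarcinoma. They were taken as every gene symbol that begins with HIST1H, HIST2H, HIST3H, H2AF or H3F3, which gave 85 of 26364 genes. Of these, 72 are called replicative genes here (HIST1H, HIST2H and HIST3H) and 13 carry the symbols of variants (H2AF and H3F3). Both classes rest on the symbol alone, and the 72 include annotated pseudogenes such as HIST2H2BA, HIST2H2BC and HIST1H2APS1. The 21 genes with at least 90 read counts summed over the 9 libraries are described one by one, 14 of them replicative and 7 of them variants. The described genes were thus chosen by their summed counts, so their levels are given without a test. That choice used no difference between groups.

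The cells carried a stably integrated pLVX lentivirus that encoded MEL-18 T334A, the wild type of MEL-18 (called MEL-18 WT) or no insert (empty vector), with 3 libraries in each of the 3 groups. T334A replaces a phosphorylated threonine of MEL-18 and is described as phosphorylation-deficient. All groups were otherwise the same line, grown for 48 h in DMEM with 10% FBS, and mRNA was captured by its poly(A) tail from 400 ng of total RNA. The libraries are called biological replicates, but the labels do not say whether they came from separate transductions. The p-values therefore measure the spread between these libraries, and an effect of a construct cannot be told apart from a difference between the transduced lines.

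Histones package DNA: H2A, H2B, H3 and H4 form the nucleosome core, and linker histone H1 binds the DNA between cores. Replicative histone mRNAs are made in S phase and normally end in a conserved stem-loop instead of a poly(A) tail, so poly(A) capture recovers only those transcripts that did receive a tail. Variant genes are expressed through the cell cycle from ordinary polyadenylated mRNAs, and their proteins replace core histones at promoters, DNA breaks and silenced chromatin. MEL-18, encoded by PCGF2, is a subunit of the Polycomb complex PRC1, which ubiquitinates H2A.

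PCGF2 followed the labels. It stood at 1420 ± 30.9 CPM in MEL-18 T334A cells, 1286 ± 6.54 CPM in MEL-18 WT cells and 22.7 ± 0.88 CPM in empty vector cells (mean ± SD, n = 3 libraries per group; CPM is the usual scaling of counts to the library size, here with TMM factors). The mesenchymal markers VIM, CD44 and PLAU were abundant, at means of 195 CPM and above in every group, whereas ESR1, PGR and CDH1 were below 0.15 CPM. EPCAM averaged 12.2 CPM in MEL-18 T334A cells, 10.1 CPM in MEL-18 WT cells and 7.47 CPM in empty vector cells. Library totals ran from 31643722 to 37005302 counts. MEL-18 T334A replicate 3 differed most from the replicates of its group, with chi-square values per degree of freedom of 3.64 and 3.98, against 1.49 to 2.77 for the other pairs within groups. Without it, the counts of called histone genes given below were 4 for MEL-18 WT against the vector and 6 in each of the comparisons of MEL-18 T334A.

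The sequences of 4 promoters are shown because 3 of these genes, HIST1H1C, HIST1H2AC and HIST1H2BD, were lower in MEL-18 T334A cells while the fourth, HIST1H2BK, was higher there than in vector cells. Each window runs from 250 bases before to 50 bases after the start in the RefSeq annotation of GRCh38.p14 (the first listed, where a gene had several), a build other than the hg19 used for counting. Capitals mark 4 exact motifs on either strand: the octamer ATTTGCAT (bound by POU2F1 at H2B genes), the CCAAT box (bound by NF-Y), TATAAA, and AAACACA of H1 promoters. The windows lie on chromosome 6 at chr6:26056421-26056720 on the minus strand (HIST1H1C), chr6:26123922-26124221 on the plus strand (HIST1H2AC), chr6:26157871-26158170 on the plus strand (HIST1H2BD) and chr6:27146809-27147108 on the minus strand (HIST1H2BK).
HIST1H1C: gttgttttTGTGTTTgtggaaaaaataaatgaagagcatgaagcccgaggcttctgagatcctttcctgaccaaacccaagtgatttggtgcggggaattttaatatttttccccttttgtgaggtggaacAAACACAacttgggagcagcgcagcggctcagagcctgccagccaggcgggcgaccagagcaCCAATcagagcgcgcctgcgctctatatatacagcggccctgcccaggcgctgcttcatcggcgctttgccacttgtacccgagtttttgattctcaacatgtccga
HIST1H2AC: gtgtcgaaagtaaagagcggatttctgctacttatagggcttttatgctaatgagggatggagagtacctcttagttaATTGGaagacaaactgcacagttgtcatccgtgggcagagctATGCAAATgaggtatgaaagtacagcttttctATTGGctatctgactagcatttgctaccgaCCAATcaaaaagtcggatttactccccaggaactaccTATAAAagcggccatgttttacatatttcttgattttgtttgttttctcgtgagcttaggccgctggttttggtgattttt
HIST1H2BD: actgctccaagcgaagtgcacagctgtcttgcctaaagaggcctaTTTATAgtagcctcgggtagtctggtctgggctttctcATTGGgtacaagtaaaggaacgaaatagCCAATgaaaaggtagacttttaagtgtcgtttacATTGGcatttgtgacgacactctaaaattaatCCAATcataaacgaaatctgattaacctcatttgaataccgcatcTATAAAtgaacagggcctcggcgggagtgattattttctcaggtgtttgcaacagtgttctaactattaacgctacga
HIST1H2BK: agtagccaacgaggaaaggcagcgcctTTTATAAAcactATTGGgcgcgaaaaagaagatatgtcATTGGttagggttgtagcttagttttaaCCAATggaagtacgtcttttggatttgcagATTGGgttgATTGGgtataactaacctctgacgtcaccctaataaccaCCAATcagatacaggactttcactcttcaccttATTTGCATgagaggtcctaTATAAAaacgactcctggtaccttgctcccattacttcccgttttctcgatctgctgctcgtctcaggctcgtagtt

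The HIST1H1C window held 2 copies of AAACACA and 1 CCAAT box, and no exact match of the octamer or TATAAA. HIST1H2AC and HIST1H2BK each held 1 octamer, whereas the HIST1H2BD window held none and had 4 CCAAT boxes and 2 matches of TATAAA. RefSeq windows were listed for 13 of the 14 replicative genes with at least 90 counts. The octamer was found in 8 of these 13 (61.54%) and in 8 of the 9 H2A and H2B genes among them, against 1.774% of all 35116 RefSeq promoter windows of the same length. Windows of head-to-head genes overlap, so these 8 windows hold 5 distinct octamers, those of HIST1H2AC and HIST1H2BC, of HIST1H2AG and HIST1H2BJ, and of HIST2H2AC and HIST2H2BE being shared. The other motif counts are likewise not over independent windows. CCAAT was in 13 of the 13 windows (34.61% of all windows), TATAAA in 11 (11.53% of all) and AAACACA in 3 (5.644% of all). Among the 7 variants, H3F3B alone held the octamer. Among the genes shown that were lower in MEL-18 T334A cells, only the HIST1H2AC window held an exact octamer. Near matches were not searched for, and a part of the octamer in these differences was not tested.

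The second set of sequences is the stem-loop that ends the usual replicative mRNA. It was searched for as GG, any 2 bases, CTT, any base, T, any base, AG, any 2 bases and CC, on the coding strand after the coding sequence of each member in GENCODE release 29, with the loop in capitals. Transcripts that continue past it can carry a poly(A) tail further on.
HIST1H2AC: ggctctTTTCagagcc
HIST1H2BD: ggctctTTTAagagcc
HIST1H2AG: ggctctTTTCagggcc
H2AFX: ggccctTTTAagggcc

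The motif was found in 6 of the 14 described replicative genes and in 32 of the 72 replicative genes. Some of the other models, such as that of HIST1H1C, hold the coding sequence alone, so a missing match says nothing of the RNA. HIST1H2AC carried the same stem-loop as HIST2H2BE and HIST1H3H, and its longest annotated transcript ran on for 1128 bases. The transcript of HIST2H2BE ran on for 1729 bases and that of HIST1H2AG for 1761 bases. HIST1H2BD carried the form also found in HIST1H2BC, and its annotated transcript with the motif ended at most 39 bases later. The RefSeq gene of HIST1H2BD spans 13229 bases, and transcripts without the motif were not counted here. H2AFX, whose mRNA is known in both stem-loop and polyadenylated forms, was the only described variant with the motif, and 1044 bases followed it.

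Variant genes held nearly all histone reads of these poly(A) libraries. They took 516560 of 534033 histone counts (96.7%), and the 72 replicative genes shared the remaining 17473 (3.27%), which were 0.0057% of all counts. Among replicative genes the counts were concentrated: HIST1H2BK held 51.4% and HIST1H1C 25.3% of them, and the 4 highest genes together 85.5%. The H2B genes summed to 10997 counts, the H1 genes to 4569, the H2A genes to 1318, the H3 genes to 375 and the H4 genes to 214, with no H4 gene reaching 90 counts.

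**Figure D1:**
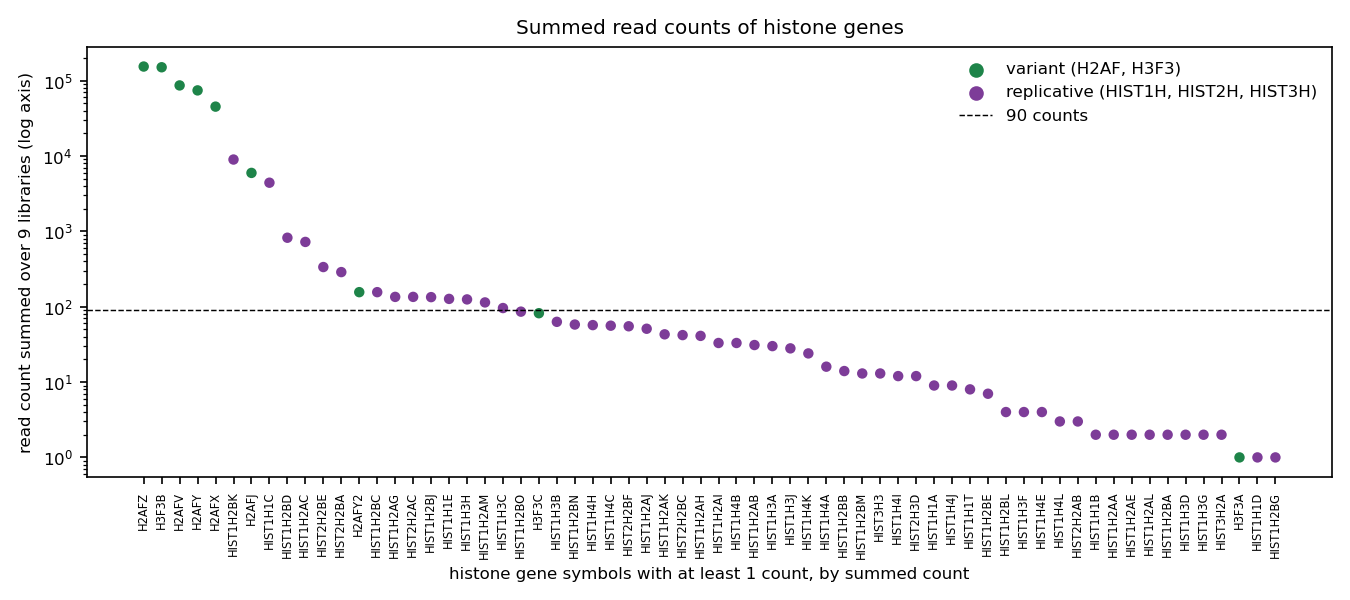
Read counts of each histone gene with at least 1 count, summed over the 9 libraries, on a log axis, with the minimum of 90 counts as a dashed line. Of the 6 genes with the most counts, 5 are variants and the other is HIST1H2BK, and the replicative genes tail off to single counts.

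Of the 85 symbols, 43 had 1 to 89 counts and 21 had 0. HIST1H2AM with 114 and HIST1H3C with 96 counts were the lowest genes above the minimum, and HIST1H2BO with 86 and H3F3C with 82 counts the highest below it. A count of 0 in 306768259 reads allows up to 3 counts, or 0.00978 CPM, and covers counting error only. The genes at 0 included 6 HIST2H genes that exist as near-identical copies, HIST2H2AA3 and HIST2H2AA4, HIST2H3A and HIST2H3C, and HIST2H4A and HIST2H4B, in which 97.1% to 100% of the 50-base windows of the exons also occur in another gene. The median share of such windows was 90.7% for the 21 genes at 0, 0.562% for the 43 genes with 1 to 89 counts and 4.65% for the 21 described genes. The genes at 0 were spread widely, from 0% to 100%, with 6 of the 21 sharing no window and 5 sharing all. How reads matching several genes were counted is not given in the sources used here, and its part in the zeros was not tested.

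H3F3A was nearly without counts. This gene and H3F3B encode the same replacement form of H3, yet H3F3A was listed with 1 count in all and H3F3B with 150572. All 362 windows of H3F3AP4, a processed copy listed at 0 counts, also occur in H3F3A, where they make up 11.7% of the windows. The other windows of H3F3A occur in no other annotated gene, and why its count is so low was not tested. The H3F3A value is not used as a level here, and the H3F3B values describe that gene alone. Some described genes have counts that could be split with another gene. The highest shares of windows were in HIST1H2AM (86.3%, overlapping HIST1H3J), HIST1H2BK (74.1%, most with H2BFS) and HIST2H2BA (73.6%, a transcribed pseudogene). HIST2H2AC (30.5%, with HIST2H2AA4) and H2AFY (28.3%, overlapping C5orf66) came next. The library kit keeps the strand, but the strand setting of the counting is not given in the sources used here.

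Per length of annotated exons, H2AFZ was the most abundant member, with a mean level of 218 CPM per kb over the 9 libraries. H2AFX followed with 91.3, H3F3B with 80.1, HIST1H2BK with 76.7 and H2AFV with 59.4 CPM per kb. HIST1H1C stood at 22.5, H2AFY at 13.6 and H2AFJ at 5.80 CPM per kb, and all other described members were below 3.1 CPM per kb. The HIST1H2BK model covers 381 coding bases and that of HIST1H1C 642 bases, so their levels per kb would fall if their polyadenylated transcripts are longer.

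Replicative H2A and H2B genes often lie head to head and share a promoter. Their counts are not scaled to the length of annotated exons, which differs within pairs, so levels per length are given beside them. HIST1H2AC had 724 counts against 156 for HIST1H2BC, which starts 246 bases away, and HIST2H2AC had 135 against 336 for HIST2H2BE. Per length, HIST1H2AC stood at 1.41 CPM per kb and HIST1H2BC at 0.613 CPM per kb. HIST2H2AC, with 390 exon bases, stood at 1.14 CPM per kb. HIST2H2BE, with 2194 exon bases, stood at 0.502 CPM per kb, so that the order of this pair was the reverse of its counts. HIST1H2AG and HIST1H2BJ had 135 and 134 counts, and HIST1H2AM and HIST1H2BO had 114 and 86. Per length, HIST1H2AG and HIST1H2BJ stood at 0.196 and 0.461 CPM per kb, and HIST1H2AM and HIST1H2BO at 0.943 and 0.729 CPM per kb. The other 8 pairs within 500 bases had at most 58 counts per gene.

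The summed level of the replicative genes differed between the groups by more than the spread of the libraries. It was 53.9, 51.4 and 52.7 CPM in MEL-18 T334A libraries 1 to 3, against 63.0, 60.1 and 61.9 CPM in MEL-18 WT libraries and 56.4, 57.4 and 55.7 CPM in empty vector libraries. No groups overlapped, with MEL-18 T334A lowest and MEL-18 WT highest. Without HIST1H2BK and HIST1H1C the sums were 11.7 to 13.5 CPM in MEL-18 T334A, 13.5 to 15.1 CPM in MEL-18 WT cells and 12.7 to 14.2 CPM in vector libraries, and the vector range then overlapped those of both MEL-18 lines. The variant genes summed to 1661 ± 29.4 CPM in MEL-18 T334A, 1671 ± 29.8 CPM in MEL-18 WT cells and 1722 ± 28.1 CPM in vector cells. In bulk RNA, fewer cells in S phase and less polyadenylated histone RNA per cell cannot be told apart.

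MEL-18 WT against the empty vector asks what raised MEL-18 does to these genes. H2AFY, a macroH2A gene of silenced chromatin, and HIST1H2BK, a replicative H2B gene, rose, by 0.11 and 0.13 on the log2 scale, and the H2A.Z gene H2AFV fell by 0.22. The other 18 described genes were not called. By edgeR's quasi-likelihood test with Benjamini-Hochberg adjustment over 14738 genes, 3 of 21 members (14.3%) had an adjusted p below 0.05, against 28.8% of all tested genes. For genes called higher, 2 of 21 members stood beside 14.4% of all genes, and for genes called lower, 1 of 21 beside 14.4%. Of the 11 members with a mean of at least 1 CPM, 3 were called (27.3%, against 31.2% of all genes at that level). The median log2 fold change of the 21 members was 0.05, and that of all tested genes -0.0017.

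MEL-18 T334A against the empty vector asks the same of the mutant, with the same 3 vector libraries as reference. HIST1H1C, which encodes a linker histone H1, fell to 0.631 times the vector level, and the replicative H2A gene HIST1H2AC to 0.723 times. H3F3B and H2AFX fell by 0.11 and 0.08 on the log2 scale, and HIST1H2BK rose by 0.15. In all, 5 of 21 members (23.8%) were called, 1 higher and 4 lower, against 45.9% of all tested genes (23.4% higher and 22.5% lower). Of the 11 members with at least 1 CPM, 5 were called (45.5%, against 49.9% of genes at that level). The median log2 fold change of the 21 members was -0.04, and that of all tested genes -0.0022. DESeq2 called 3 of these 5, without H2AFX and HIST1H2AC, and the same 3 were called by edgeR without empty vector replicate 2.

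MEL-18 T334A against MEL-18 WT asks what the loss of the phosphorylated residue changes while MEL-18 is raised in both lines. The replicative genes HIST1H1C, HIST1H2AC and HIST1H2BD fell to 0.566, 0.635 and 0.804 times the MEL-18 WT level, and the variants H2AFX and H2AFY fell by 0.12 and 0.08 on the log2 scale. H2AFV rose by 0.19. In all, 6 of 21 members (28.6%) were called, 1 higher and 5 lower, against 40.9% of all tested genes (21% higher and 20% lower). Of the 11 members with at least 1 CPM, 6 were called (54.5%, against 44.9% of genes at that level). Over the 21 members the median log2 fold change was -0.02, and that of all tested genes -0.0033. PCGF2 itself differed between the MEL-18 lines, with a log2 fold change of 0.14 ± 0.03 (edgeR adjusted p = 0.000148), and its part in these differences was not tested.

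**Figure D2:**
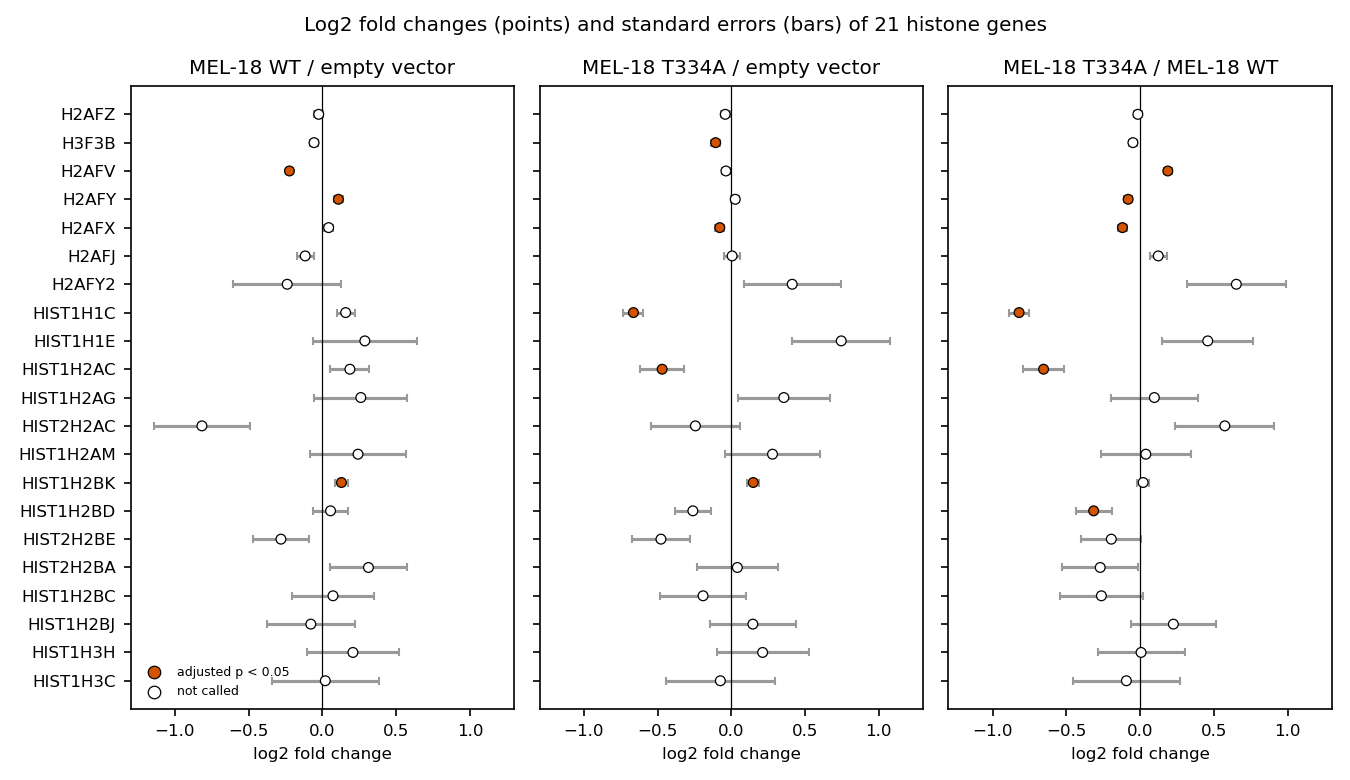
Log2 fold change (horizontal axis) of the 21 described histone genes (rows) in each comparison, with bars for the standard error and filled points for genes with an adjusted p below 0.05. HIST1H1C and HIST1H2AC are the called genes farthest from 0, at -0.82 and -0.66 in MEL-18 T334A against MEL-18 WT, and genes with few counts have wide bars.

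Linker histone H1 was represented by HIST1H1C and HIST1H1E. HIST1H1C had 10.5, 8.88 and 10.5 CPM in MEL-18 T334A libraries, against 18.4, 16.5 and 17.8 CPM in MEL-18 WT libraries and 16.2, 15.3 and 15.7 CPM in vector libraries. All MEL-18 T334A libraries lay below all others, and the lowest MEL-18 WT library lay just above the highest vector library. The log2 fold change was -0.82 ± 0.07 against MEL-18 WT (edgeR adjusted p = 1.83e-10) and -0.66 ± 0.07 against the vector (edgeR adjusted p = 8.8e-09). MEL-18 WT differed from the vector by 0.16 ± 0.06, which just missed the threshold (edgeR adjusted p = 0.0548) and passed it in 8 of 16 alternative settings, with adjusted p from 0.0239 to 0.221 over all of them.

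HIST1H1E did not follow HIST1H1C. It had 16, 19 and 20 counts in MEL-18 T334A libraries, 9, 13 and 19 in MEL-18 WT libraries and 13, 12 and 6 in vector libraries. All MEL-18 T334A libraries lay above all vector libraries, but the difference of 0.75 ± 0.33 was not called (edgeR adjusted p = 0.0674). The ratio of summed counts was 1.68 with an exact 95% interval of 1.07 to 2.71, which covers counting error only. The remaining 4 replicative H1 genes had between 1 and 89 counts each.

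Among replicative H2A genes, HIST1H2AC was the most abundant. It had 2.11, 1.67 and 1.61 CPM in MEL-18 T334A libraries, against 3.02, 2.74 and 2.68 CPM in MEL-18 WT libraries and 2.20, 2.77 and 2.45 CPM in vector libraries. MEL-18 T334A lay below both other groups in every library, while MEL-18 WT and vector overlapped. The log2 fold change was -0.66 ± 0.14 against MEL-18 WT (edgeR adjusted p = 0.000489) and -0.47 ± 0.15 against the vector (edgeR adjusted p = 0.0105), with 57 to 68 counts per MEL-18 T334A library behind it. The value against the vector was -0.37 and no longer called without empty vector replicate 2 (edgeR adjusted p = 0.0775), and DESeq2 gave an adjusted p of 0.0575.

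The other H2A genes had 114 to 135 counts in all and none was called. HIST2H2AC had 17, 18 and 13 counts in MEL-18 T334A, 6, 14 and 13 in MEL-18 WT and 13, 21 and 20 in vector libraries. MEL-18 WT was 0.82 ± 0.33 lower than the vector on the log2 scale (edgeR adjusted p = 0.0622), and its ratio of summed counts of 0.565 had an exact 95% interval of 0.355 to 0.887, for counting error only. HIST1H2AG and HIST1H2AM overlapped between the groups in every comparison.

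HIST1H2BK was the most abundant replicative gene and took another course than HIST1H1C. It had 29.9, 30.8 and 30.3 CPM in MEL-18 T334A libraries, 30.7, 30.1 and 28.98 CPM in MEL-18 WT libraries and 27.6, 27.9 and 26.7 CPM in vector libraries. Every library with MEL-18 lay above every vector library, and the MEL-18 lines overlapped. The log2 fold change was 0.15 ± 0.04 for MEL-18 T334A (edgeR adjusted p = 0.0054) and 0.13 ± 0.04 for MEL-18 WT (edgeR adjusted p = 0.0225), and 0.02 ± 0.04 between the MEL-18 lines (edgeR adjusted p = 0.741). The call for MEL-18 WT was lost without empty vector replicate 3, MEL-18 WT replicate 1 or MEL-18 WT replicate 2 (edgeR adjusted p = 0.0837, 0.104 and 0.0605) and with DESeq2 (adjusted p = 0.110).

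HIST1H2BD, another replicative H2B gene, had 2.27, 2.18 and 2.57 CPM in MEL-18 T334A libraries, 2.94, 2.82 and 2.98 CPM in MEL-18 WT libraries and 2.74, 2.77 and 2.90 CPM in vector libraries. MEL-18 T334A lay below both other groups without overlap. Its log2 fold change was -0.32 ± 0.12 against MEL-18 WT (edgeR adjusted p = 0.0393) and -0.26 ± 0.12 against the vector, the second of which was not called (edgeR adjusted p = 0.0902). The call against MEL-18 WT held in 7 of 16 alternative settings, and was lost among others without any of MEL-18 WT replicates 1, 2 and 3 or MEL-18 T334A replicates 1 and 2, with adjusted p from 0.0237 to 0.181 over all of them.

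HIST2H2BE had 1.05, 0.651 and 1.10 CPM in MEL-18 T334A libraries, 1.01, 1.09 and 1.11 CPM in MEL-18 WT libraries and 1.34, 1.31 and 1.24 CPM in vector libraries. The vector libraries lay above all others, and MEL-18 T334A differed from the vector by -0.48 ± 0.20, just outside the threshold (edgeR adjusted p = 0.0513). It was called without MEL-18 T334A replicate 1 or 3 (edgeR adjusted p = 0.0473 and 0.0249). HIST2H2AC, with which it shares a promoter, had a mean below that of the vector in both MEL-18 lines. Its MEL-18 WT libraries lay below all vector libraries, while its MEL-18 T334A libraries overlapped with them. In MEL-18 WT, HIST2H2BE was at -0.28 ± 0.19 and HIST2H2AC at -0.82 ± 0.33 against the vector. In MEL-18 T334A they were at -0.48 ± 0.20 and -0.24 ± 0.30. Between MEL-18 T334A and MEL-18 WT the signs differed, with HIST2H2BE at -0.20 ± 0.20 and HIST2H2AC at 0.57 ± 0.34. None of these differences was called. HIST2H2BA, a transcribed H2B pseudogene, ranged from 0.451 to 1.12 CPM in MEL-18 T334A, 0.812 to 1.28 CPM in MEL-18 WT cells and 0.640 to 1.04 CPM in vector libraries. HIST1H2BC and HIST1H2BJ stood below 0.7 CPM in every library and overlapped between the groups.

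**Figure D3:**
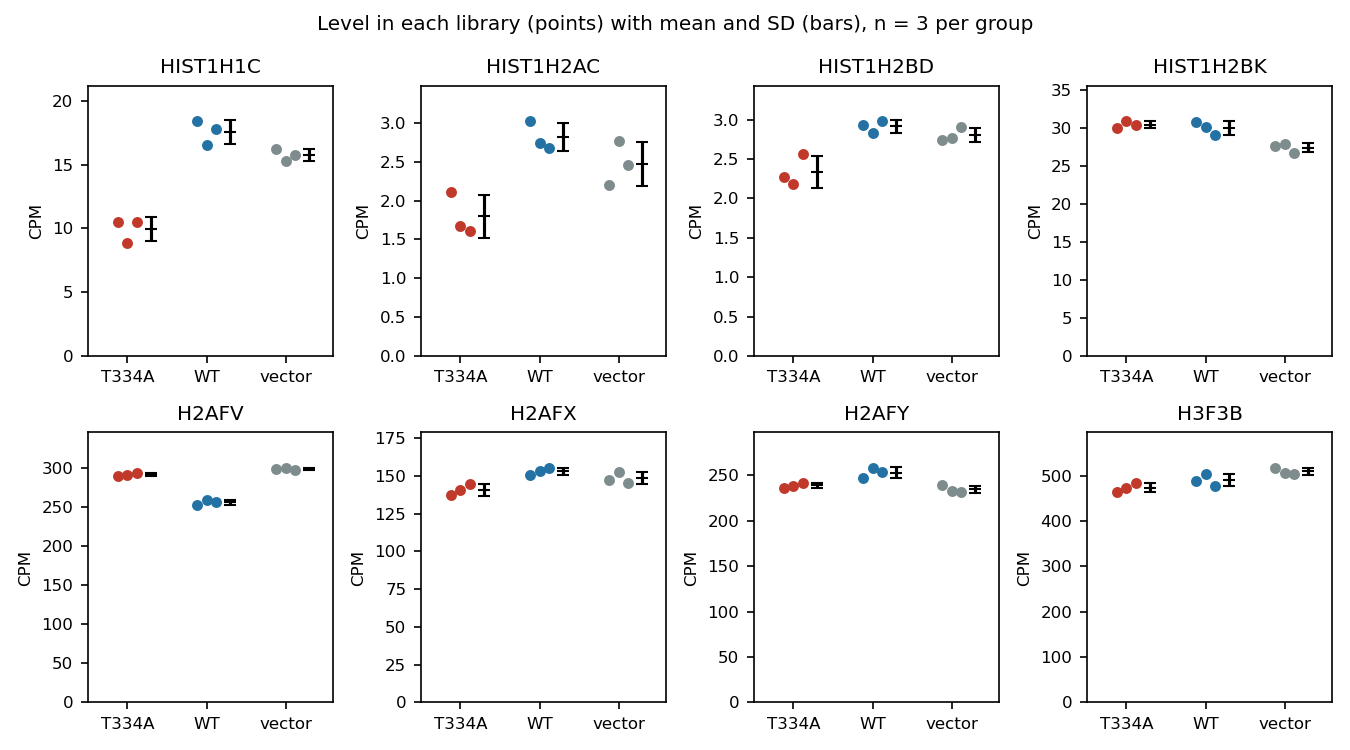
CPM (vertical axes, starting at 0) of the 8 histone genes called in at least 1 comparison, with a point per library and the mean and SD of 3 libraries beside each group. HIST1H1C, HIST1H2AC and HIST1H2BD are lowest in MEL-18 T334A, HIST1H2BK is lowest in the vector, and H2AFV is lowest in MEL-18 WT.

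Replicative H3 reached 90 counts in HIST1H3H and HIST1H3C only. HIST1H3H had 15, 11 and 18 counts in MEL-18 T334A libraries, 14, 14 and 17 in MEL-18 WT libraries and 10, 13 and 13 in vector libraries, and HIST1H3C had 7 to 16 counts in every library. The groups overlapped for both genes in every comparison. At these counts a difference of the size seen for HIST1H1C may go undetected, since the standard errors of HIST1H3C were 0.36 to 0.37 on the log2 scale.

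Among variants, the H2A.Z genes H2AFZ and H2AFV encode near-identical proteins that mark promoters, and they differed between the groups in unlike ways. H2AFV had 289, 292 and 294 CPM in MEL-18 T334A libraries, 253, 259 and 257 CPM in MEL-18 WT libraries and 299, 301 and 298 CPM in vector libraries. MEL-18 WT lay below the other groups, and MEL-18 T334A slightly below the vector, with no overlap. Against the vector, MEL-18 WT was at -0.22 ± 0.03 on the log2 scale (edgeR adjusted p = 2.41e-07) and MEL-18 T334A at -0.04 ± 0.03 (edgeR adjusted p = 0.269). Between the MEL-18 lines the difference was 0.19 ± 0.03 (edgeR adjusted p = 2.61e-06).

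H2AFZ was more abundant and was not called in any comparison. It had 487, 488 and 509 CPM in MEL-18 T334A libraries, 491, 513 and 498 CPM in MEL-18 WT libraries and 521, 515 and 492 CPM in vector libraries, and all groups overlapped. The log2 fold changes lay between -0.04 and -0.02, with standard errors of 0.03.

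H2AFX encodes H2A.X, which is phosphorylated around DNA breaks. It had 137, 140 and 144 CPM in MEL-18 T334A libraries, 150, 153 and 155 CPM in MEL-18 WT libraries and 147, 153 and 145 CPM in vector libraries. MEL-18 T334A lay below both other groups, and MEL-18 WT and vector overlapped. Its log2 fold change against MEL-18 WT was -0.12 ± 0.03 (edgeR adjusted p = 0.00212) and kept its call in all 16 alternative settings. Against the vector it was -0.08 ± 0.03 (edgeR adjusted p = 0.0365), and that call held in 6 of 16 settings, with adjusted p from 0.0125 to 0.282. It was lost among others without empty vector replicate 1 or 2, MEL-18 WT replicate 2 or 3, or MEL-18 T334A replicate 1 or 2.

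H2AFY encodes macroH2A, a large variant found on silenced chromatin. It had 236, 239 and 241 CPM in MEL-18 T334A libraries, 247, 258 and 253 CPM in MEL-18 WT libraries and 239, 233 and 232 CPM in vector libraries. MEL-18 WT lay above both other groups, which overlapped. MEL-18 WT was 0.11 ± 0.03 above the vector on the log2 scale (edgeR adjusted p = 0.00402), and MEL-18 T334A stood at -0.08 ± 0.03 relative to MEL-18 WT (edgeR adjusted p = 0.0204). The second call held in 11 of 16 alternative settings, and the removal of MEL-18 WT replicate 2 or 3 or of MEL-18 T334A replicate 1 or 2 ended it.

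H2AFY2, the other macroH2A gene, was near the lower limit of the data. It had 24, 23 and 19 counts in MEL-18 T334A libraries, 6, 16 and 21 in MEL-18 WT libraries and 15, 23 and 9 in vector libraries, and it was not called. H2AFJ, a variant known to accumulate in senescent human cells, had 19.5, 20.99 and 19.5 CPM in MEL-18 T334A libraries, 19.0, 17.4 and 18.8 CPM in MEL-18 WT libraries and 19.9, 21.4 and 18.5 CPM in vector libraries. MEL-18 T334A lay above MEL-18 WT without overlap, but the difference of 0.12 ± 0.06 was not called (edgeR adjusted p = 0.0843).

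H3F3B, the gene for replacement H3 that is deposited outside S phase, had 464, 474 and 483 CPM in MEL-18 T334A libraries, 488, 504 and 477 CPM in MEL-18 WT libraries and 518, 507 and 504 CPM in vector libraries. MEL-18 T334A lay below the vector without overlap, and MEL-18 WT overlapped with both. The log2 fold change of MEL-18 T334A against the vector was -0.11 ± 0.03 (edgeR adjusted p = 0.00312), and MEL-18 WT differed from the vector by -0.06 ± 0.03 (edgeR adjusted p = 0.141).

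Counting libraries without a test, 6 of 21 members did not overlap between MEL-18 WT and the vector, against 42.7% of all tested genes. For MEL-18 T334A this held for 9 of 21 against the vector and 7 of 21 against MEL-18 WT, with 51.5% and 48.7% of all tested genes. Among the 11 members with a mean of at least 1 CPM, 5 did not overlap between MEL-18 WT and the vector, 8 between MEL-18 T334A and the vector and 7 between MEL-18 T334A and MEL-18 WT, beside 45.5%, 54.9% and 52.3% of all genes at that level in the same comparisons. The remaining members had few counts. Of 15 replicative genes known to give polyadenylated transcripts, 9 were tested. In MEL-18 WT against the vector 1 rose (11.1% called, beside 28.8% of all tested genes), in MEL-18 T334A against the vector 1 rose and 2 fell (33.3%, beside 45.9%), and in MEL-18 T334A against MEL-18 WT 3 fell (33.3%, beside 40.9%).

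Each gene was also set beside the 20 tested genes without histone symbols on each side of it. For HIST1H1C, the median log2 fold change of these 40 neighbours was 0.10 in MEL-18 T334A against MEL-18 WT and 0.05 against the vector, and none of them was as low as HIST1H1C in either comparison. The neighbours of HIST1H2AC had the same medians, and none was as low as that gene, whereas 2 were as low as HIST1H2BD in each of the comparisons. The neighbours of H2AFV on chromosome 7 differed in the same direction as the gene. The median of its 40 neighbours was -0.15 in MEL-18 WT against the vector, with 21 of them called lower, and 0.16 in MEL-18 T334A against MEL-18 WT, with 22 called higher. The part of that shift in the H2AFV difference was not tested. For HIST2H2BE and HIST2H2AC on chromosome 1 the median was -0.17 in MEL-18 WT against the vector, with 21 of 40 neighbours called lower. In MEL-18 T334A against the vector it was -0.10, with 14 called lower. For H2AFY2 the medians were 0.17 in MEL-18 T334A against the vector and 0.16 against MEL-18 WT, with 27 called higher in each. The part of these shifts in the values of those genes was not tested either. For H2AFY the medians were -0.00 and -0.05, and for H2AFX -0.04 in MEL-18 T334A against MEL-18 WT.

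**Figure D4:**
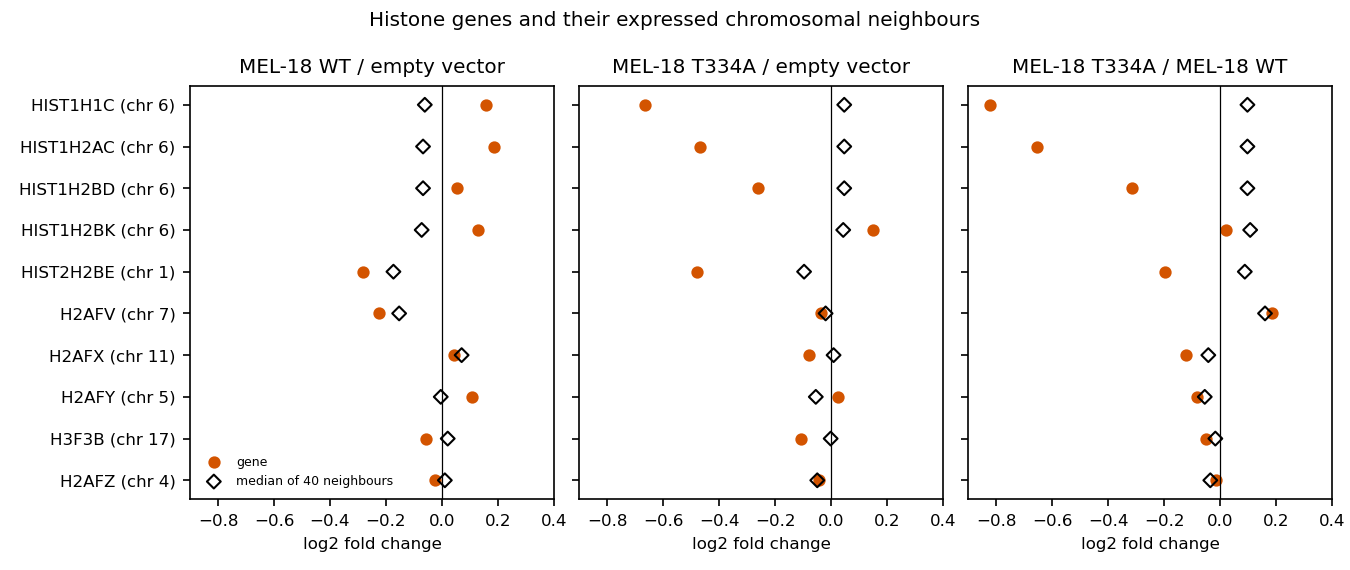
Log2 fold change (horizontal axes) of 10 histone genes (filled points, chromosome in brackets) and the median of the 40 nearest tested genes without histone symbols (open diamonds) in each comparison. HIST1H1C and HIST1H2AC lie far left of their neighbours in both comparisons of MEL-18 T334A, and H2AFV lies near the median of its own.

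Genes of the pathway were counted in lists. Of 29 tested genes of histone transcription and histone mRNA processing, 1 rose and 6 fell in MEL-18 WT against the vector (24.1% called, beside 28.8% of all tested genes). In MEL-18 T334A, 1 rose and 13 fell against the vector (48.3%, beside 45.9%), and 2 rose and 11 fell against MEL-18 WT (44.8%, beside 40.9%). The shares called in either direction are near those of all genes, but more of the called genes fell than rose. Of all tested genes, 14.4% rose and 14.4% fell in MEL-18 WT against the vector. In MEL-18 T334A, 23.4% of all tested genes rose and 22.5% fell against the vector, and 21% rose and 20% fell against MEL-18 WT. SLBP, which binds the stem-loop, was not called and averaged 97.5 CPM in MEL-18 T334A, 97.8 CPM in MEL-18 WT cells and 101 CPM in vector cells. NPAT, the coactivator of replicative histone genes, fell in MEL-18 T334A, by 0.13 against the vector and by 0.12 against MEL-18 WT. SNRPG, a core protein of spliceosomal and U7 particles, was at 103 ± 4.16 CPM in MEL-18 T334A, 117 ± 1.796 CPM in MEL-18 WT cells and 138 ± 10.8 CPM in vector cells. Relative to the vector it fell by 0.41 in MEL-18 T334A and by 0.23 in MEL-18 WT. Among other particle genes, LSM10, LSM11, SNRPB, SNRPE and SNRPF were not called in any comparison. SNRPD3 was called lower in MEL-18 T334A against both other groups. ERI1, an exonuclease that trims histone mRNA ends, was at 76.2 ± 2.32 CPM in MEL-18 T334A, 61.9 ± 1.34 CPM in MEL-18 WT cells and 72.6 ± 1.05 CPM in vector cells, lower in MEL-18 WT than in either other group. ZNF473, a zinc finger protein of the U7 machinery, rose in both MEL-18 lines, by 0.21 in MEL-18 T334A and 0.28 in MEL-18 WT.

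Of 39 tested chaperones and exchange factors, 2 rose and 8 fell in MEL-18 WT against the vector (25.6% called, beside 28.8% of all tested genes). In MEL-18 T334A, 2 rose and 19 fell against the vector (53.8%, beside 45.9%), and 6 rose and 12 fell against MEL-18 WT (46.2%, beside 40.9%). By direction, 23.4% of all tested genes rose and 22.5% fell in MEL-18 T334A against the vector. The shares against MEL-18 WT were 21% and 20%. ANP32E, which removes H2A.Z from nucleosomes, averaged 348 CPM in MEL-18 T334A, 320 CPM in MEL-18 WT cells and 382 CPM in vector cells. Like H2AFV it was lowest in MEL-18 WT, with log2 fold changes against the vector of -0.14 ± 0.03 in MEL-18 T334A and -0.25 ± 0.03 in MEL-18 WT. VPS72 of the H2A.Z loading complex fell against the vector by 0.14 in MEL-18 T334A and by 0.20 in MEL-18 WT, and was not called between the MEL-18 lines. ASF1B, which hands over H3 and H4 in S phase, fell by 0.21 in MEL-18 WT against the vector and was 0.24 higher in MEL-18 T334A than in MEL-18 WT. NAP1L1, an H2A and H2B chaperone, fell by 0.17 in MEL-18 T334A against the vector.

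Of 41 tested genes of S phase and DNA replication, 2 rose and 8 fell in MEL-18 WT against the vector (24.4% called, beside 28.8% of all tested genes). In MEL-18 T334A, 9 rose and 19 fell against the vector (68.3% called, beside the 45.9% of all tested genes), and 8 rose and 14 fell against MEL-18 WT (53.7%, beside 40.9%). By direction, 23.4% of all tested genes rose and 22.5% fell in MEL-18 T334A against the vector. The shares against MEL-18 WT were 21% and 20%. The DNA polymerase gene POLA1 averaged 67.9 CPM in MEL-18 T334A, 84.9 CPM in MEL-18 WT cells and 84.8 CPM in vector cells, and POLA2, its partner subunit, averaged 27.6 CPM in MEL-18 T334A, 21.8 CPM in MEL-18 WT cells and 25.3 CPM in vector cells. RRM2, a subunit of ribonucleotide reductase, fell against the vector by 0.29 in MEL-18 T334A and by 0.15 in MEL-18 WT, and by 0.14 in MEL-18 T334A against MEL-18 WT. The part of S phase in the histone differences was not tested.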

How the data were processed

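Whole-number read counts per gene symbol were deposited for each of 9 libraries, with no normalization by the authors. The submitters' processing notes name CASAVA 1.8, STAR 2.5.3a, featureCounts and Subread 1.5.3, and the genome build hg19. Which annotation and strand setting were used, and what was done with multi-mapped reads, is not given in the sources used here. Library totals ran from 31643722 to 37005302 counts.

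Genes passing filterByExpr (14738 of 26364) were tested with edgeR 4.0.16 in R 4.3.3, with TMM factors of 0.979 to 1.02, a mean per group over all 9 libraries and no replicate term, by the two-sided quasi-likelihood F test. Calls were made where the p-value, adjusted by Benjamini-Hochberg over all tested genes, was below 0.05. The common dispersion corresponded to a coefficient of variation of 2.57%. Errors of log2 fold changes are standard errors. The pairs of replicates within groups all differed by more than sampling noise. Same-numbered libraries of different groups did not deviate together, with correlations of -0.08 to 0.01.

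Alternatives were RLE factors, library totals alone, DESeq2 1.42.0, no filter, a minimum of 1 CPM in 3 libraries, a replicate block, a fit of the compared groups alone, and fits without any single library. Named were all variants with at least 90 counts, the 8 most abundant replicative genes, called members, and from each pathway list some of the called genes with the largest changes. SLBP, NPAT, HIST1H1E and the other low members given with values were chosen after their values were seen. Members and lists were chosen with earlier results of these data known. Shared sequence was counted as 50-base windows of annotated exons in GENCODE release 29 (GRCh38), and promoter sequences come from RefSeq for GRCh38.p14.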

Additional observations from a re-analysis of the deposited data

How the results depend on the processing

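Over the alternatives, no log2 fold change of a called member changed its direction. The number of called members in MEL-18 T334A against the vector was 5, and it was 3 with DESeq2, which lost H2AFX and HIST1H2AC. With each library left out in turn it ran from 3 (without empty vector replicate 2) to 6. The corresponding ranges were 2 to 4 for MEL-18 WT against the vector, where 3 were called with all libraries, and 4 to 6 between MEL-18 T334A and MEL-18 WT, where 6 were. The replicate numbers do not pair the libraries, and a fit with the replicate block gave 4 called members for MEL-18 WT against the vector, 5 for MEL-18 T334A against the vector and 6 between MEL-18 T334A and MEL-18 WT, with HIST1H1C added in the first (edgeR adjusted p = 0.0417). In the same order of comparisons, library totals alone in place of TMM gave 4, 5 and 4 called members, split as 3 higher and 1 lower, 2 higher and 3 lower, and 1 higher and 3 lower. With TMM the splits were 2 and 1, 1 and 4, and 1 and 5. Library totals also moved the share of higher genes among all called genes to 60.14%, against 50.07% with TMM, in MEL-18 WT against the vector and to 64%, against 51.07% with TMM, in MEL-18 T334A against the vector. The calls of H2AFV, H3F3B, HIST1H1C, H2AFY in MEL-18 WT against the vector, HIST1H2BK in MEL-18 T334A against the vector, and H2AFX and HIST1H2AC in MEL-18 T334A against MEL-18 WT held in all 16 alternatives. Depth limits the described members below 1 CPM, whose standard errors reach 0.37 on the log2 scale, and poly(A) capture does not measure replicative histone mRNA without a tail.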

Other observations

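Of 11 listed histone genes with other symbols, 3 were tested, and all 3 were called lower in both MEL-18 lines against the vector. Of all tested genes, 14.4% were called lower in MEL-18 WT and 22.5% in MEL-18 T334A. The centromeric H3 gene CENPA averaged 35.1 ± 1.66 CPM in MEL-18 T334A, 40.9 ± 0.555 CPM in MEL-18 WT cells and 44.7 ± 2.53 CPM in vector cells. It fell against the vector by 0.35 in MEL-18 T334A (edgeR adjusted p = 2.43e-07) and by 0.13 in MEL-18 WT (edgeR adjusted p = 0.023), and by 0.22 in MEL-18 T334A against MEL-18 WT (edgeR adjusted p = 0.000197). The linker histone gene H1F0, expressed in non-dividing and differentiated cells, averaged 441 ± 16.9 CPM in MEL-18 T334A, 423 ± 8.07 CPM in MEL-18 WT cells and 469 ± 7.40 CPM in vector cells. Against the vector it fell by 0.09 in MEL-18 T334A and by 0.15 in MEL-18 WT. H1FX, a linker histone gene outside the clusters, averaged 83.8 ± 5.18 CPM in MEL-18 T334A, 85.8 ± 2.30 CPM in MEL-18 WT cells and 96.8 ± 5.15 CPM in vector cells. Against the vector it fell by 0.21 in MEL-18 T334A and by 0.17 in MEL-18 WT. Neither linker histone gene was called between the MEL-18 lines, where HIST1H1C differed most.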
